A study of Mus musculus with 41 samples.

Results

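After a transcription factor is switched on in a new cell type, some of the chromatin it occupies first may not be occupied later. Here, early transient SOX9 sites are regions that carried a SOX9 peak at week (W) 1 or W2 of induction, but no peak at W6, at W12 or before induction (day 0, D0). The members were chosen by their SOX9 peaks alone. The SOX9 CUT&RUN (CNR) peaks of W1, W2, W6 and W12 were merged where they shared at least 1 bp, which gave 28549 regions, and 6699 of them (23.5%) met this rule. Of these, 2264 had a W1 peak only, 2669 a W2 peak only and 1766 both. The remaining regions served as comparison. Retained regions (13781) had an early peak and a W6 or W12 peak, late regions (7292) had a W6 or W12 peak only, and 777 regions overlapped a D0 peak.

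In CNR a nuclease held by an antibody cuts out the DNA around a protein, which is then sequenced. Back skin of male CD1 mice gave the sorted epidermal stem cells (EpdSCs). The mice carried a *Krt14*-driven rtTA, active in skin epithelium, and a TRE-controlled, MYC-tagged *Sox9*, which doxycycline (DOX) turns on. There were 2 samples of SOX9 CNR for each of D0, W1, W2, W6 and W12, and 2 of MLL3/4 CNR for each of D0, W1 and W2. The D0 mice carried the same transgenes and had received no DOX. Postnatal age was 21 days for D0, 28 for W1, 35 for W2 and 63 for W6, whereas W12 skin came from newborn pups and had been grafted onto immunocompromised female hosts, so age and grafting cannot be told apart from weeks of DOX. In culture, EpdSCs with *Krt14*-rtTA received a lentiviral, MYC-tagged SOX9 that was either whole (WT-SOX9), or lacked the transactivation domain (dTA-SOX9) or the HMG domain that binds DNA (dHMG-SOX9). Their MYC tag and MLL3/4 were mapped for all 3 forms with 1 µg per ml DOX and for WT-SOX9 also in the absence of DOX, 2 samples each time. Both MLL3/4 samples of WT-SOX9 cells with DOX are described in the labels as replicate 2, although they are numbered 1 and 2.

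SOX9 is an HMG-box transcription factor that specifies hair follicle stem cells, is scarcely present in adult EpdSCs and can bind DNA within nucleosomes. MLL3 and MLL4 are the methyltransferases that place the monomethyl mark of enhancers on histone H3, and SOX9 works with them and with other chromatin remodellers. AP1 (FOS and JUN dimers), GATA3, KLF and TEAD factors are DNA-binding proteins long known in epidermis, and RUNX1 is known in hair follicle stem cells.

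Each group was represented by 1 peak list called on its pooled samples, and the WT-SOX9 groups without DOX also by a list of replicate 1, which leaves no replicate spread to test against, and groups were not tested. Each share is given with a 95% Wilson confidence interval (CI), each difference between classes with a 95% Newcombe interval and each change at the same regions with a normal interval. All of them run over regions and cover counting error only. Signal is RPKM, coverage scaled for length and library size, and the maximum of a peak is its highest RPKM. One fragment was worth 57.6 RPKM at W1 and 76.4 at W2, which implies 17.4 and 13.1 M fragments, against 32.5 M at D0, 23.8 M at W6 and 21.8 M at W12. The early lists therefore came from the shallowest SOX9 libraries. The authors kept only SOX9 peaks with a maximum above 1800 RPKM, so a region without a W6 or W12 peak may still have held SOX9 signal under that limit. The lists hold no expression values, so the identity of the sorted cells could not be checked against marker transcripts.

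To show what such sites look like, 6 windows of 101 bases around the early SOX9 maximum are printed below, taken from members with peaks at both W1 and W2. They are the strongest at W2 that held a SOX word, an AP1 word without a SOX word, or neither word. The SOX word was CCATTGT or its variants with T at base 3 (CCTTTGT), with G at base 1 (GCATTGT) and with both (GCTTTGT). The AP1 word was TGACTCA or else TGAGTCA, and words counted on either strand. Bases are on the plus strand of mm10, read 5′ to 3′, and capitals mark the words.
*Ippk* intron, chr13:49436376-49436476, SOX word: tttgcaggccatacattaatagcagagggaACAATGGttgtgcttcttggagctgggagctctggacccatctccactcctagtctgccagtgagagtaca
*Diaph3* intron, chr14:86401337-86401437, SOX words: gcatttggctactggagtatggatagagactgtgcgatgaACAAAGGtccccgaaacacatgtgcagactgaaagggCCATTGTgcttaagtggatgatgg
*S100z* intergenic, chr13:95491995-95492095, AP1 word: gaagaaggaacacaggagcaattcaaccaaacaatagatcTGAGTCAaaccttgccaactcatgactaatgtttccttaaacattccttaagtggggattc
*Atp6v1g3* intergenic, chr1:138358047-138358147, AP1 word: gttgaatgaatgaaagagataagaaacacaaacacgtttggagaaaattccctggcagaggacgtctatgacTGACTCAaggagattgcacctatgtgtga
*Bahcc1* intron, chr11:120243731-120243831, neither word: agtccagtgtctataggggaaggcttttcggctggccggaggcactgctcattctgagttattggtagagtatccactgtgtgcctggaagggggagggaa
*Tcf12* promoter, chr9:71896590-71896690, neither word: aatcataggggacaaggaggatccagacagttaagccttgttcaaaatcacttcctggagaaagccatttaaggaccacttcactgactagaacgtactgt

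The window in *Ippk*, a gene for an inositol phosphate kinase, belongs to the strongest early transient region of both weeks. Its maximum was 10027 RPKM at W1 and 9549.7 at W2, or 174 and 125 fragments. The window in *Diaph3*, which encodes a formin, held 2 SOX words on opposite strands and reached 5417 RPKM at W1 and 6494 at W2. Both regions lacked an MLL3/4 peak at D0 and had one at W1 and at W2. Neither AP1 window showed that course: the region near *S100z* (3285 RPKM at W1, 5348 at W2) had no MLL3/4 peak at D0, W1 or W2, and that near *Atp6v1g3* (6223 and 5119 RPKM) had one in all 3 lists. Among the windows with neither word, the *Bahcc1* region had 2708 RPKM at W1 and 6417 at W2, and no MLL3/4 peak. The window at the start of *Tcf12*, an E-protein gene, reached 3688 and 6112 RPKM and had MLL3/4 at W1 and W2 but not at D0. The distance from the region's maximum to the nearest protein-coding start was 244 bp for *Tcf12*, 14812 bp for *Ippk* and 347457 bp for *Diaph3*.

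Most early transient regions were weak SOX9 sites. As the rule used the SOX9 lists, the following signals are a description. The higher of the W1 and W2 maxima ranged from 1834 to 10027 RPKM with a median of 2368, against a median of 3457 in retained regions. At W1 the median member peak held 39 fragments and at W2 it held 32, against 50.0 and 45 in retained regions. The weakest member peaks sat just inside the limit, at 1844 RPKM at W1 (366 regions) and 1834 at W2 (341 regions). Just outside the rule, 1433 retained regions (10.4%) owed their class to a W6 or W12 maximum under 2000 RPKM, the lowest being 1805. Of the early regions with a maximum of 1800 to 2100 RPKM, 66.1% were transient. This share was 51.9% from 2100 to 2700 RPKM, 28.8% from 2700 to 3600 and 7.17% above 3600, where 493 of 6874 regions were transient.

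**Figure D1:**
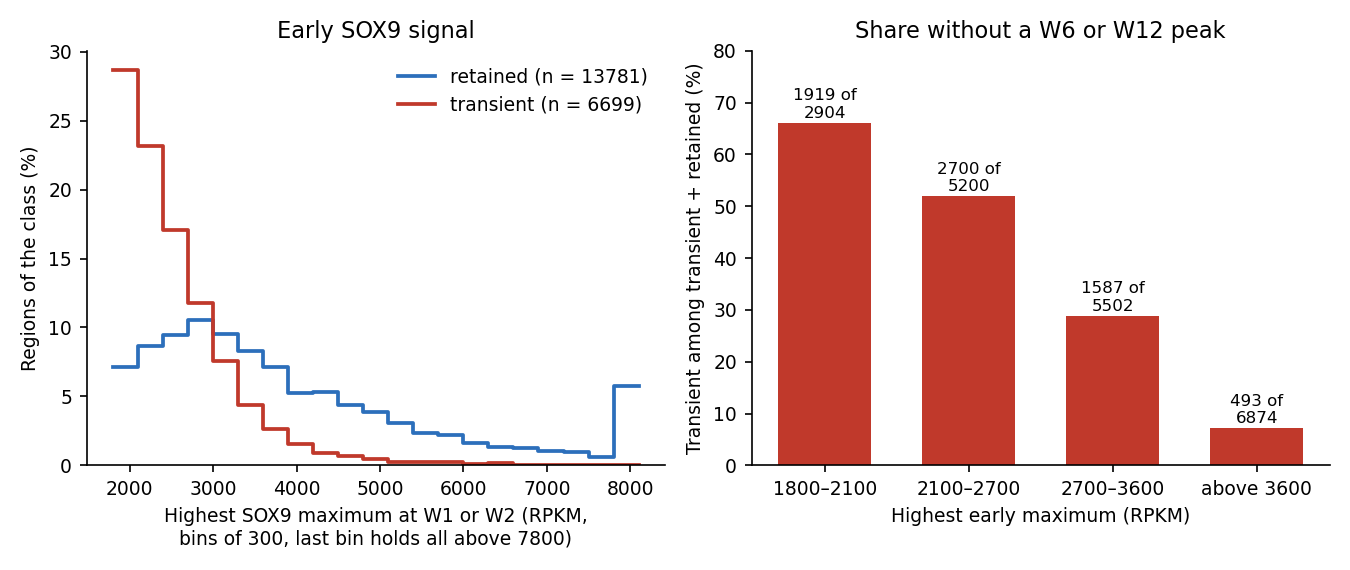
Highest SOX9 maximum at W1 or W2 in RPKM against the percentage of early transient and retained regions (left), and the percentage of transient regions among both classes in 4 ranges of that maximum, with counts above the bars (right). Transient regions crowd near the lower limit, and their share falls from 66.1% in the weakest range to 7.17% in the strongest.

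The members also differed among themselves in place and base composition. The median width of a region was 510 bp, and 573 bp, 385 bp and 699 bp for those with W1 peaks only, W2 peaks only and both. Within 250 bp of the maximum the median G+C content was 44.5% for W1 only, 52.3% for W2 only and 46.7% for both. Promoters, that is 1 kb to either side of any annotated transcription start, held 40.6% (95% CI 38.7 to 42.5) of the W2-only members but 14.6% (95% CI 13.2 to 16.1) of the W1-only members. The difference, W1 only minus W2 only, was -26.0 points (95% CI -28.3 to -23.6). Members with both peaks lay between them at 20.5% (95% CI 18.7 to 22.4). Over the whole class 26.5% (95% CI 25.5 to 27.6) lay at promoters, 38.2% in introns, 32.6% between genes and 2.70% in exons. Of all 28549 merged regions 21.1% lay at promoters, 40.6% in introns, 35.7% between genes and 2.49% in exons. Where both weeks had a peak, the W1 and W2 maxima were a median of 33 bp apart, and 57.3% of members were higher at W2.

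MLL3/4 was not used by the rule. At D0, before SOX9 was induced, 65.1% (95% CI 63.9 to 66.2) of the early transient regions already lay on an MLL3/4 peak, against 53.7% of all merged regions. The shares were 65.3% (95% CI 64.2 to 66.4) at W1, where all merged regions stood at 59.8%, and 65.2% (95% CI 64.1 to 66.4) at W2, where they stood at 60.1%. Regions moved by 10 kb to each side, a measure of the local background, gave 5.61%, 5.26% and 5.05%. The change from D0 was 0.239 points (95% CI -1.11 to 1.58) by W1 and 0.179 points (95% CI -1.15 to 1.51) by W2, with 1023 members losing and 1035 gaining an overlap between D0 and W2. This level course held opposite moves by place. Away from promoters the members rose from 62.0% (95% CI 60.7 to 63.4) at D0 to 70.1% (95% CI 68.8 to 71.3) at W1 and 68.6% (95% CI 67.3 to 69.9) at W2. At promoters they fell from 73.5% (95% CI 71.4 to 75.5) to 52.1% (95% CI 49.7 to 54.4) and 55.8% (95% CI 53.5 to 58.1). The course also depended on the choice of members. From D0 to W2 the share rose from 75.1% to 84.8% with SOX9 lists of equal size and from 61.9% to 78.0% with early peaks above 3600 RPKM, but fell from 64.8% to 61.4% in members with an early maximum of 1800 to 2700 RPKM. In retained regions the share rose from 63.6% (95% CI 62.7 to 64.4) at D0 to 77.4% (95% CI 76.7 to 78.1) at W1 and 78.1% (95% CI 77.4 to 78.8) at W2. Here too the moves were opposite by place, with 57.5%, 78.4% and 78.6% away from promoters and 82.8%, 74.4% and 76.3% at promoters. The change by W2 thus differed between the classes by -14.3 points (95% CI -15.9 to -12.8). It differed less within each range of the early maximum. At 1800 to 2100 RPKM transient minus retained went from 10.7 points at D0 to 2.89 at W2. At 2100 to 2700 RPKM it went from 5.24 to -1.54 points. From 2700 to 3600 RPKM it went from 0.0869 to -3.91 points, and above 3600 from -2.53 to -9.51. Intervals for these changes were not computed. Late regions were far less often on MLL3/4, with 19.9% at D0 and 17.6% at W2. At D0 the transient and retained classes differed by 1.52 points (95% CI 0.117 to 2.91), with opposite signs by place: 4.56 points (95% CI 2.90 to 6.21) away from promoters and -9.33 points (95% CI -11.8 to -6.93) at promoters. With early peaks above 3600 RPKM only, it was -2.44 points, and this interval held 0 (95% CI -6.93 to 1.88). With the upper 50% of MLL3/4 peaks it was -4.03 points (95% CI -5.48 to -2.57), and with SOX9 lists of equal size 9.20 points (95% CI 7.495 to 10.9), so its sign depended on the processing. The depth of the MLL3/4 lists is unknown and their lengths fell from 37072 peaks at D0 to 31539 at W1 and 29281 at W2, so levels of different lists were set side by side at the same regions only.

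The share with MLL3/4 differed with the week of the SOX9 peak. Members with a W1 peak only lay on MLL3/4 in 59.2% (95% CI 57.1 to 61.2) of cases at D0, 66.2% (95% CI 64.2 to 68.1) at W1 and 53.9% (95% CI 51.8 to 55.9) at W2. Members with a W2 peak only moved the other way, from 62.9% (95% CI 61.1 to 64.7) at D0 to 51.1% (95% CI 49.2 to 53.0) at W1 and back to 61.8% (95% CI 59.9 to 63.6) at W2. From W1 to W2 the W1-only members changed by -12.3 points (95% CI -14.4 to -10.2) and the W2-only members by 10.7 points (95% CI 8.52 to 12.8). These changes differed by -23.0 points (95% CI -26.0 to -20.0). Members with both peaks rose from 75.9% (95% CI 73.8 to 77.8) at D0 to 85.6% (95% CI 83.9 to 87.2) at W1 and stood at 85.1% (95% CI 83.3 to 86.6) at W2. These courses turned with place. Away from promoters the W2-only members stood at 57.3% at D0, 55.7% at W1 and 68.7% at W2, and at promoters at 71.2%, 44.3% and 51.6%. W1-only members stood at 57.2%, 67.9% and 54.6% away from promoters and at 70.9%, 56.4% and 50.0% at promoters. Away from promoters W1-only minus W2-only was 12.2 points (95% CI 8.93 to 15.3) at W1 and -14.2 points (95% CI -17.3 to -11.0) at W2. At promoters they differed at W1 by 12.04 points (95% CI 5.88 to 18.05), and at W2 by -1.62 points (95% CI -7.74 to 4.52).

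The step from W1 to W2 was much alike in retained regions. Those with a W1 peak only also fell from W1 to W2, from 59.7% to 49.6%, and the change differed from that of the W1-only members by -2.18 points (95% CI -5.90 to 1.53, transient minus retained). For W2-only regions the difference was 1.64 points (95% CI -1.24 to 4.53). The change from D0 differed between the classes. W2-only members changed by -11.8 points by W1 and -1.12 by W2, whereas retained W2-only regions changed by 1.06 and 10.1 points, so that the changes differed by -12.9 points (95% CI -15.9 to -9.78) and -11.2 points (95% CI -14.3 to -8.14). These sums were not split by place, and the distal W2-only members, as given above, rose by W2. By W2 the W1-only members had changed by -5.30 points and retained W1-only regions by 0.347, a difference of -5.65 points (95% CI -9.42 to -1.88). Among regions with both early peaks, retained ones gained 17.6 points by W2 and transient ones 9.17 points, a difference of -8.43 points (95% CI -10.9 to -5.99). Transient regions of that kind had more MLL3/4 at D0, by 7.39 points (95% CI 5.14 to 9.54), and the same could not be told at W2, where the difference was -1.05 points (95% CI -2.91 to 0.692).

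**Figure D2:**
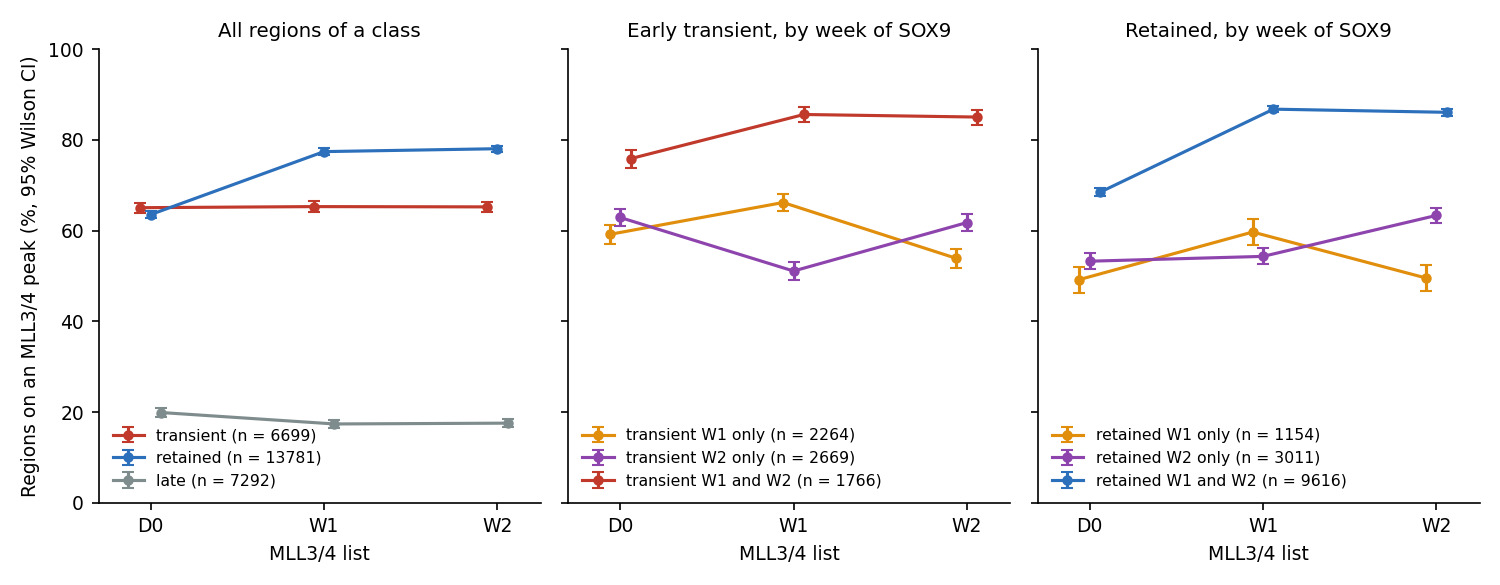
Percentage of regions on an MLL3/4 peak at D0, W1 and W2 for each class (left), for early transient regions split by the week of their SOX9 peak (middle) and for retained regions split alike (right). Bars are 95% Wilson CIs over regions. Early transient regions lie at 65.1% to 65.3% in each list as a class, a level that sums a rise of distal and a fall of promoter members (not drawn apart), while W1-only and W2-only members cross between W1 and W2.

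Early transient regions were then sorted by their MLL3/4 course. MLL3/4 was present at D0 and again later in 3848 members (57.4%, 95% CI 56.3 to 58.6), beside 48.9% of all merged regions. It was found at D0 only in 511 members (7.63%, 95% CI 7.02 to 8.29, all regions 4.83%), was gained after D0 in 1427 (21.3%, 95% CI 20.3 to 22.3, all regions 20.7%) and was in none of these 3 lists in 913 (13.6%, 95% CI 12.8 to 14.5, all regions 25.6%). Retained regions were on D0 peaks only in 2.76% of cases, and the classes differed by 4.86 points (95% CI 4.19 to 5.57). Gained overlaps were fewer in the transient class, by -4.76 points (95% CI -5.97 to -3.52), with -6.86 points (95% CI -8.33 to -5.36) away from promoters and the opposite sign at promoters (2.91 points, 95% CI 1.00 to 4.91). The 511 members that held MLL3/4 at D0 only were at promoters in 56.9% (95% CI 52.6 to 61.2) of cases, against 23.98% of the other members. The SOX word was most frequent in members without MLL3/4 at D0, W1 and W2, with 22.0% (95% CI 19.4 to 24.8) of windows against 10.4% of the other members, a difference of 11.6 points (95% CI 8.88 to 14.5). Of these 913 members 83 (9.09%) lay on an MLL3/4 peak of cultured cells without DOX, against 34.9% of the other members and 44.7% of all regions. The word stood in 15.1% (95% CI 13.3 to 17.0) of members that gained MLL3/4 and in 9.12% (95% CI 8.25 to 10.1) of those that had it at D0 and later.

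The SOX word was sought within 50 bp of the early maximum. It was found in 12.02% (95% CI 11.3 to 12.8) of the early transient windows, against 6.25% of windows 1 kb to each side and 17.3% of all merged regions. Retained windows held it in 18.6% (95% CI 17.9 to 19.2) and late windows in 20.7% (95% CI 19.8 to 21.6) of cases. Transient minus retained was -6.55 points (95% CI -7.56 to -5.53). The share depended on the search: it was 18.7% within 100 bp of the maximum, 21.6% with a shorter SOX word and 2.94% with a longer one, and in each case it was below that of retained windows. The word was as uneven among the members as their place. It stood in 17.6% (95% CI 16.1 to 19.2) of W1-only windows, 12.2% (95% CI 10.7 to 13.8) of those with both peaks and 7.19% (95% CI 6.27 to 8.24) of W2-only windows, where neighbouring windows gave 5.79%. W1-only members did not differ from retained W1-only regions beyond counting error (-1.57 points, 95% CI -4.38 to 1.14), whereas W2-only members stood -7.35 points (95% CI -8.95 to -5.75) from their retained counterparts. Away from promoters the W1-only and W2-only shares were 18.3% and 9.27%, a difference of 8.98 points (95% CI 6.73 to 11.2).

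The AP1 word was less frequent in early transient than in retained or late windows. It was found in 8.15% (95% CI 7.52 to 8.83) of windows (1 kb away 1.84%, all merged regions 19.7%), against 17.97% (95% CI 17.3 to 18.6) in retained and 31.2% (95% CI 30.2 to 32.3) in late windows. Transient minus retained was -9.82 points (95% CI -10.7 to -8.90). Within 100 bp of the maximum the transient share was 13.6%, and with a shorter AP1 word 16.3%, again below retained windows. With the word for GATA factors, AGATAAC or AGATAAG, the order was the reverse. It stood in 4.22% (95% CI 3.77 to 4.73) of transient windows, 2.30% (95% CI 2.06 to 2.56) of retained ones and 1.56% (95% CI 1.303 to 1.87) of late ones, against 2.56% of all merged regions. Windows 1 kb away gave 2.13%, 2.42% and 2.46%. The transient class exceeded the retained one by 1.92 points (95% CI 1.40 to 2.49). Members with both early peaks reached 5.38% (95% CI 4.42 to 6.53) and W1-only members 4.90% (95% CI 4.09 to 5.87). W2-only members stood at 2.88% (95% CI 2.31 to 3.59), near retained W2-only regions at 2.19%. As a description of 1 window width, 19.4% of the transient windows held a SOX or an AP1 word, against 34.3% of retained and 34.7% of all windows.

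Among the other words searched on both strands, GGGCGGG of SP and KLF factors was found in 6.66% (95% CI 6.09 to 7.28) of transient windows (all regions 4.75%). It stood in 12.3% (95% CI 11.1 to 13.6) of W2-only windows but 2.16% (95% CI 1.64 to 2.85) of W1-only windows. Within promoters these shares were 26.3% and 11.5%, and away from them 2.65% and 0.569%. CCGGAAG of ETS factors went the same way, with 3.26% of W2-only and 0.618% of W1-only windows (whole class 1.82%, all regions 1.19%). Retained regions had the same order, with 6.81% of W2-only and 2.77% of W1-only windows for SP and KLF and 1.89% and 0.953% for ETS. ACATTCC of TEAD factors was at 2.66% (95% CI 2.30 to 3.07, all regions 2.13%), 0.669 points (95% CI 0.233 to 1.14) above retained windows. AACCACA of RUNX factors was at 1.70% (95% CI 1.42 to 2.04, all regions 2.58%), under its 2.52% in windows 1 kb away, while late windows held it in 4.09%. TGACGTC of CREB factors (1.10%, all regions 0.778%) and AACCNGTT of GRHL factors (1.36%, all regions 1.18%) were rare. The CTCF word (18 members, all regions 0.189%), the TP63 word (3 members, all regions 0.0490%) and the NFI word (1 member, all regions 0.00701%) were too rare to compare. No 7-letter word equals another on either strand, although matches of different words may overlap, and a match is only a run of letters in the window.

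**Figure D3:**
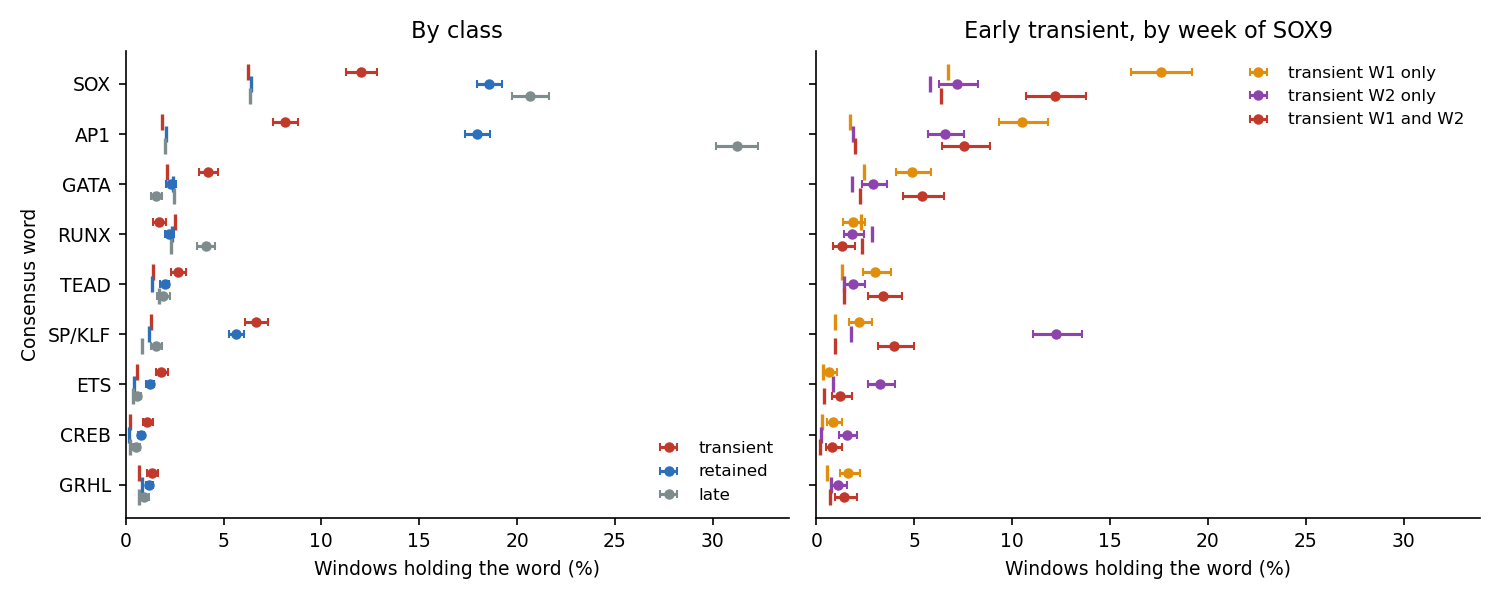
Percentage of windows, 101 bases around the SOX9 maximum, that hold each of 9 consensus words, for the 3 classes (left) and for early transient regions by the week of their SOX9 peak (right). Points with bars are shares with 95% Wilson CIs, and vertical ticks are the shares in windows 1 kb away. Transient windows hold fewer SOX and AP1 words and more GATA words than retained ones, and the SP/KLF word is in 12.3% of W2-only and 2.16% of W1-only members.

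Because transient regions were weaker, the contrasts of shares between the whole transient and retained classes were repeated within ranges of the early maximum. The intervals for changes from D0 and the contrasts by week were not. For W2 MLL3/4 the difference was -12.8 points (95% CI -14.2 to -11.5) over all regions. It was 2.89 points (95% CI -0.926 to 6.71) at 1800 to 2100 RPKM and -1.54 points (95% CI -4.12 to 1.04) at 2100 to 2700, and was -3.91 points (95% CI -6.51 to -1.38) at 2700 to 3600 and -9.51 points (95% CI -13.5 to -5.97) above 3600. At D0 the weak transient regions were more often on MLL3/4 than retained ones of like signal, by 10.7 points (95% CI 6.93 to 14.5) in the lowest range and 5.24 points (95% CI 2.62 to 7.85) in the next. For gained MLL3/4 the difference was -2.93 points (95% CI -6.17 to 0.198) in the lowest range, then -2.86 (95% CI -5.09 to -0.640), 0.0228 (95% CI -2.39 to 2.52) and -1.11 points (95% CI -5.09 to 3.18) in the highest, so 3 of the 4 intervals held 0. The deficit of AP1 words was there in every range, from -14.4 points (95% CI -17.4 to -11.5) in the lowest to -9.76 points (95% CI -11.8 to -7.11) in the highest. The deficit of SOX words was smaller, with -3.16, -2.45, -1.94 and -7.02 points from the lowest range to the highest, and its interval reached 0.0688 in the third. The excess of GATA words was 0.698 points (95% CI -0.720 to 1.95) in the lowest range and 3.72 points (95% CI 1.92 to 6.18) in the highest.

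**Figure D4:**
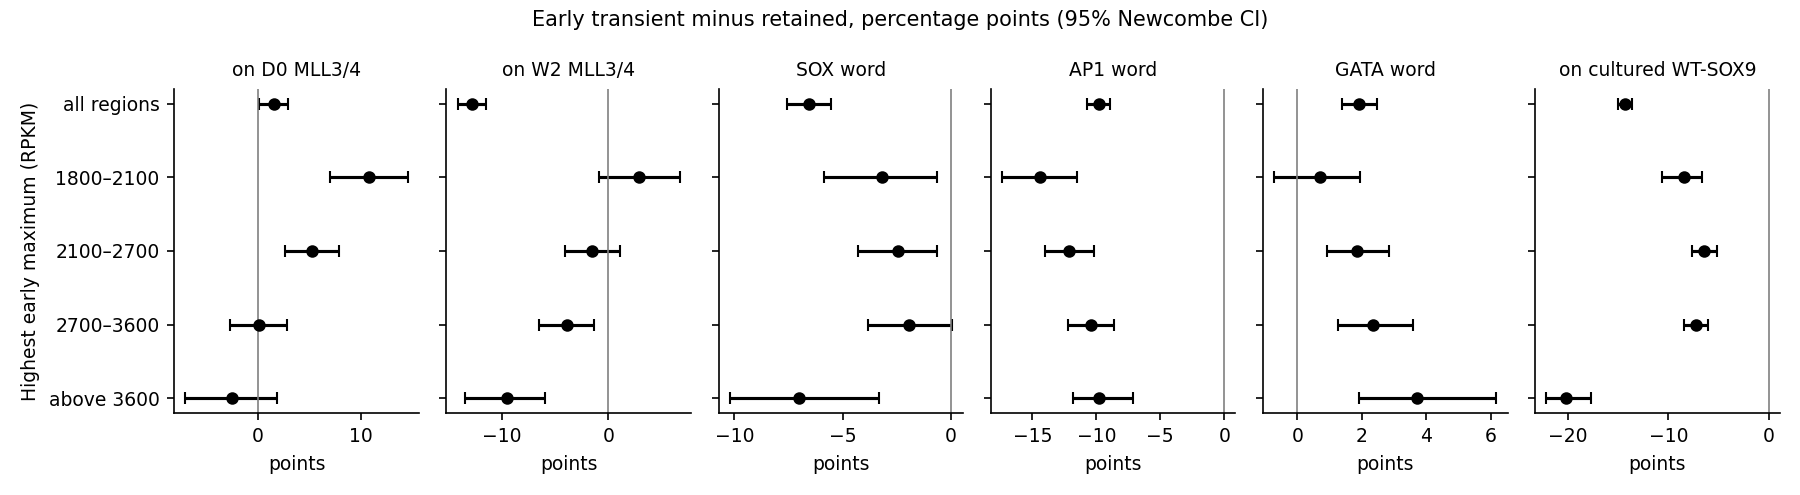
Early transient minus retained regions, in percentage points with 95% Newcombe CIs, for all regions and for 4 ranges of the highest early SOX9 maximum in RPKM. From left to right are the shares on D0 and W2 MLL3/4 peaks, the shares of windows with SOX, AP1 and GATA words and the share on MYC-tag peaks of cultured WT-SOX9 cells. The AP1 and WT-SOX9 differences are below 0 in every range, while the W2 MLL3/4 difference is near 0 in the 2 weakest ranges.

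Whether the same regions were bound in cultured cells was asked with the MYC-tag lists, which the rule did not use. The WT-SOX9 list held 163 of them, 2.43% (95% CI 2.09 to 2.83, all regions 12.2%), against 16.8% (95% CI 16.2 to 17.4) of retained and 10.9% (95% CI 10.2 to 11.7) of late regions. Transient minus retained was -14.4 points (95% CI -15.1 to -13.6) and lay below 0 in every range of early signal. The same regions moved by 10 kb gave 0.530%. With SOX9 lists of equal size the transient share was 4.73%, and with early peaks above 3600 RPKM 5.01%. The list without DOX held 1.97% (95% CI 1.66 to 2.33, all regions 4.30%), and 0.157% of moved regions. The list of replicate 1 alone, without DOX and not limited to peaks above 1800 RPKM, held 4.64% (95% CI 4.16 to 5.17, all regions 9.26%), more than the WT-SOX9 list with DOX. The dTA-SOX9 list held 4.81% (95% CI 4.32 to 5.35, all regions 17.5%) against 19.7% of retained regions (7.70% of transient regions with SOX9 lists of equal size), and the dHMG-SOX9 list 2.24% (95% CI 1.91 to 2.62, all regions 5.42%) against 7.03%. W1-only members were on WT-SOX9 peaks in 4.20% (95% CI 3.44 to 5.10) and W2-only members in 1.05% (95% CI 0.727 to 1.51) of cases. In the list without DOX these shares were 0.928% and 2.81%, and in the dHMG-SOX9 list 1.24% and 2.96%. The W2-only share with WT-SOX9 was thus below that in both of these lists. The MYC-tag libraries were shallow, with 4.04 to 6.09 M fragments implied, and their pooled lists hold only peaks above 1800 RPKM, so signal under that limit was not seen. The part of depth in these shares was not tested.

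MLL3/4 in culture was likewise less frequent at early transient regions. Without DOX, 31.3% (95% CI 30.2 to 32.5, all regions 44.7%) lay on an MLL3/4 peak, less than of late regions (36.5%, 95% CI 35.4 to 37.6) and of retained ones (52.9%, 95% CI 52.1 to 53.8). In replicate 1 alone it was 34.1% (95% CI 32.9 to 35.2, all regions 47.2%). In the pooled list the difference from retained regions was -21.6 points (95% CI -23.0 to -20.2), while at D0 in vivo the classes differed by 1.52 points. The in vivo values ran from -4.03 to 9.97 under the other settings. Split by place and by early signal, they reached -9.33 at promoters and 10.7 at 1800 to 2100 RPKM. With WT-SOX9 and DOX the share was 8.05% (95% CI 7.42 to 8.72, all regions 21%), with dTA-SOX9 18.5% (95% CI 17.6 to 19.4, all regions 33.5%) and with dHMG-SOX9 22.1% (95% CI 21.1 to 23.1, all regions 34.4%). Between WT-SOX9 cells without and with DOX the transient class changed by -23.3 points (95% CI -24.4 to -22.2) and the retained class by -24.1 points (95% CI -25.1 to -23.2). These changes differed by 0.825 points (95% CI -0.654 to 2.30). The list with DOX was the shortest, at 10543 peaks against 33975 without, and the part of list length in these changes was not tested.

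**Figure D5:**
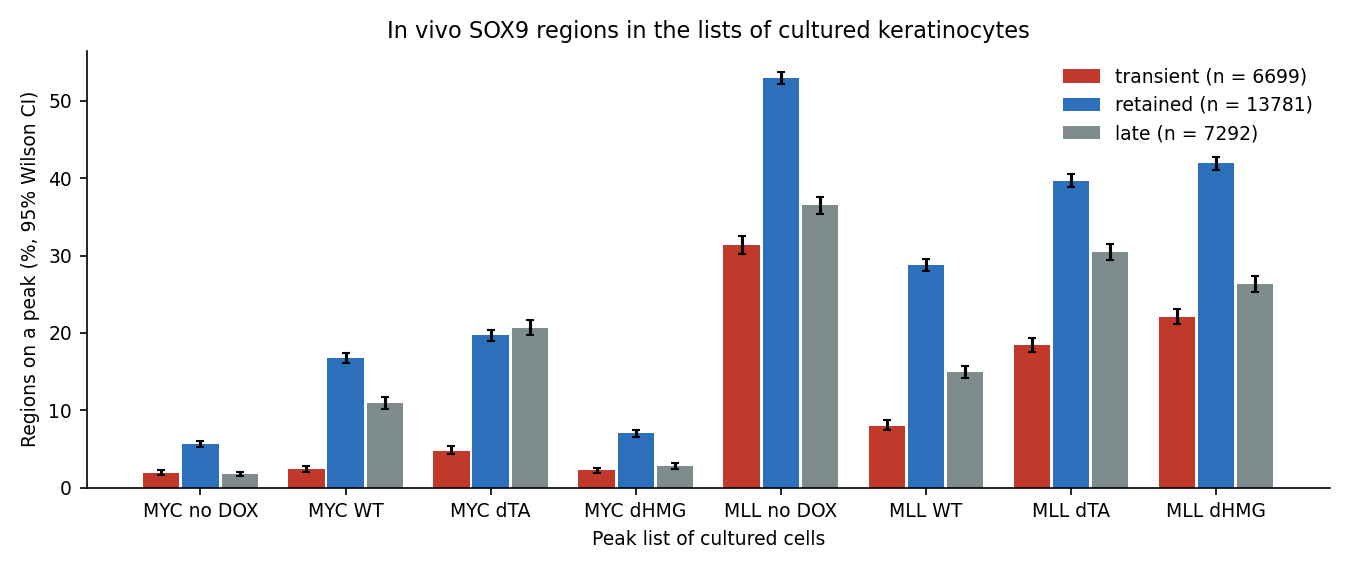
Percentage of early transient, retained and late regions on a peak of each list of cultured cells, with 95% Wilson CIs. MYC stands for MYC-tag CNR and MLL for MLL3/4 CNR, no DOX for WT-SOX9 cells without DOX, and WT, dTA and dHMG for the SOX9 form expressed with DOX. Early transient regions are the lowest class in each list except the MYC-tag list without DOX. There they stand at 1.97% and late regions at 1.77%. With DOX their MYC-tag shares are 2.43% for WT-SOX9, 4.81% for dTA-SOX9 and 2.24% for dHMG-SOX9.

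Each region was assigned to the protein-coding gene with the nearest start. The 6699 members fell to 3961 genes of 21911 (18.1%), of which 2611 had 1 member, 179 had 5 or more, and 2295 (57.9%) also had a retained region. *Foxn3*, a forkhead repressor gene, had the most, with 16 members and 0 retained regions. Its 13 W1 peaks ranged from 1844 to 3918 RPKM and its 10 W2 peaks from 1910 to 4049, and 14 of its members lay on D0 MLL3/4 peaks. *Gata3*, which encodes a factor of epidermal identity, followed with 15 members beside 28 retained regions, its farthest member 961129 bp away. Of its 15 members, 14 lay on MLL3/4 peaks at D0, and none gained MLL3/4 later. *Asap1*, for a regulator of ARF GTPases, had 13 members, 2 of them on WT-SOX9 peaks of cultured cells, and 4 gained MLL3/4. *Zbtb20*, a zinc finger repressor gene, had 11 members, all with a W1 peak (1959 to 5589 RPKM), and 7 gained MLL3/4. Over the whole class 65.1% lay on D0 MLL3/4 and 21.3% gained it. WT-SOX9 peaks of cultured cells held 2.43% of the class, and 4.22% had a GATA word. The counts per gene were not tested. *Ktn1*, *Zfp608* and *Sptssa* had 12 members each, and *2010111I01Rik*, *Nfib* and *Kank1* had 11 each. *Nfib*, a gene for a factor of hair follicle stem cells, had 9 members on D0 MLL3/4 peaks and 3 with a GATA word.

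Of the members with an early maximum above 3600 RPKM, 61.9% lay on MLL3/4 at D0. Behind *Ippk*, the highest W1 maxima were 9219.8 RPKM (160 fragments) in an intron of *Tenm4*, a teneurin gene, at chr7:96586563-96586905, and 8355 RPKM (145 fragments) in an intron of *Nrg1*, an ERBB ligand gene, at chr8:32269943-32270783. The *Tenm4* region had a W1 peak only and no MLL3/4 peak at D0, W1 or W2. The *Nrg1* region had 3285 RPKM at W2 and gained MLL3/4 at W1. A region 2928 bp from the start of *Dsg1c*, a desmosomal cadherin gene, reached 7664 RPKM at W1 without a W2 or MLL3/4 peak. Regions in an intron of *Pla2g4a* (7549 RPKM) and near *Cwc22* (7318 RPKM) had W1 peaks only and gained MLL3/4 at W1, and the one in *Pla2g4a*, a phospholipase gene, lay on a dTA-SOX9 peak. At W2 the members in *Bahcc1* and *Tcf12* were followed by regions near *Znrf2* (5729.8 RPKM, 6569 at W1) and *Zpld1* (5653 RPKM, 6569 at W1). Of the 11 regions named here for their W1 or W2 maximum, *Zpld1* alone lay on MLL3/4 at D0, and 0 were on a WT-SOX9 peak. WT-SOX9 peaks held 2.43% of the whole class and 5.01% with early peaks above 3600 RPKM. At such shares 11 regions are too few to show a lack. At coding promoters the strongest members were those of *Serpina3f* (6857 RPKM at W1, 4355 at W2), *Tcf12*, *Mrps33* (5532 at W1), *Smap1* (5417 and 4507) and *Ormdl1* (1844 and 4889). The *Smap1* and *Ormdl1* promoters carried MLL3/4 at D0, and the other 3 gained it.

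Gene groups were read against the 18.1% of all protein-coding genes with a member, and 27.4% with a retained region. Since genes with long flanks collect more regions, these counts are descriptions. They also depend on how a region is given to a gene: with the gene body and 50 kb to each side in place of the nearest start, 37.3% of all genes and 21 of the 30 ribosomal protein genes had a member. Of 22 epidermal transcription factor genes 18 had a member, with 66 in all, and 19 had a retained region. *Klf4*, a barrier factor gene, had 10, all with a W1 peak (1844 to 3054 RPKM) and 3 also at W2. *Klf5* had 7, all on D0 MLL3/4 peaks, and *Ehf*, an ETS factor gene, had 5, of which 4 gained MLL3/4. Of 22 genes for hair follicle stem cell factors 18 had a member and 16 a retained region. With the gene body and 50 kb to each side both of these counts were 16. For the epidermal factor genes 18 then had a member and 22 a retained region. Beside *Nfib*, *Sox6* had 5 (1 on a WT-SOX9 peak), *Sox4* had 4 and *Zbtb16* had 4 intronic ones and 0 retained regions, all 4 on MLL3/4 at D0. Of the whole class 2.43% lay on a WT-SOX9 peak.

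Members also lay near adhesion genes. Of 26 epidermal structural and junction genes 19 had a member and 17 a retained region, and 6 had members only. With the gene body and 50 kb to each side the order was the other way, with 21 genes having a member and 23 a retained region. *Cdh1*, for E-cadherin, had 8 members beside 3 retained regions. All 8 had a W2 peak (1986 to 3056 RPKM), 5 also a W1 peak (1844 to 2363 RPKM), and 4 gained MLL3/4. *Cldn1*, a tight junction gene, had 4, *Dsp*, for desmoplakin, had 3, and *Gja1*, for connexin 43, had 3 with W1 peaks only. Of 18 basement membrane and integrin genes 12 had a member and 17 a retained region, among them *Cd44* (4 members), *Plec* (3) and *Itga6* (3).

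Genes of signalling pathways had members as well. In the WNT pathway 17 of 32 genes had a member and 23 a retained region. The ligand gene *Wnt4* had 4 members, all with W2 peaks only (2216 to 3209 RPKM) and all on D0 MLL3/4, and *Wnt10a* had 4, its highest at 4125 RPKM at W2. The co-repressor genes *Tle4* and *Tle3* had 4 and 3. In the hedgehog pathway 6 of 14 genes had a member: the co-receptor gene *Gas1* had 7 beside 13 retained regions, the transcription factor gene *Gli2* had 3, and the co-receptor genes *Cdon* and *Boc* had 2 each, W2 only. In the EGF receptor pathway it was 11 of 19, in the Notch pathway 6 of 22 and in the TGF-beta and BMP pathway 16 of 28. Retained regions were found at more genes, with 8 hedgehog, 16 EGF receptor, 13 Notch and 23 TGF-beta and BMP genes. With the gene body and 50 kb to each side, 21 WNT, 8 hedgehog, 13 EGF receptor, 10 Notch and 16 TGF-beta and BMP genes had a member. The receptor gene *Erbb4* had 3 and *Lrig1*, for a receptor inhibitor, had 3 with W2 peaks only (2139 to 4049 RPKM). *Errfi1*, for another inhibitor, had 2, as had *Nrg1*. The Notch ligand genes *Dll1* and *Jag1* had 5 each, with maxima up to 5935 and 5244 RPKM at W1, the target *Hes1* had 4 and the coactivator gene *Maml3* had 2. *Tgfbr3*, for a co-receptor, had 8, of which 7 lay on D0 MLL3/4, the ligand genes *Bmp7* and *Bmp4* had 5 and 3, and *Fst*, for an inhibitor, had 4.

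Of 25 genes for AP1 factors and early response 19 had a member and 23 a retained region. *Myc* had 4 members beside 25 retained regions and *Klf6* 3 beside 24, while *Egr2* had 4 and *Fosl2* 3, the latter with W2 peaks only. Of 22 chromatin regulator genes 10 had a member and 11 a retained region. *Chd7*, a chromodomain remodeller gene, led with 6 members, then *Arid1b* with 3 and *Smarca2* and *Kdm6b* with 2 each. Of 30 ribosomal protein genes 15 had a retained region and 9 had 1 member each. Those of *Rps24*, *Rps9* and *Rpl13* were within 61 bp of the start, and each was higher at W2 (3438, 3361 and 3209 RPKM) than at W1 (2074, 2593 and 2017 RPKM). That of *Rpl11* was 36507 bp away. Of 28 cell cycle and replication genes 14 had a retained region and 10 a member (16 with the gene body and 50 kb to each side). *Ccnd2* (up to 4507 RPKM at W2) and *Mcm5* had 2 members each, and *E2f3* and *Ccnb2* had 1 each. Genes of cells that the sort should leave out were counted too. Of 25 genes of immune cells, fibroblasts, melanocytes and endothelium 3 had one, namely *Pecam1* (5, all intronic), *Mitf* (4) and *Dcn* (1, at 5474 RPKM at W1 and 267953 bp away), or 12%, and 9 (36%) had a retained region. Of 30 genes of other tissues 1 had a member, *Actn2*, and 3 a retained region. With the gene body and 50 kb to each side these lists had members at 4 and 8 genes (26.7% of the latter).

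At 7 loci named in the study, each widened by 50 kb at both ends, 3 held an early transient region, as did 37.3% of all genes. *Gata3* (chr2:9857078-9890034) had 2 beside 1 retained region. One, 45670 bp from its start, had a W2 maximum of 2903 RPKM and lay on MLL3/4 at D0 and later, and the other, in an intron, had a W1 maximum of 1844 RPKM and no MLL3/4 peak. *Trp63* (chr16:25683763-25892102), the gene for the epidermal factor p63, had 2 beside 10 retained regions, an intergenic one (2445 RPKM at W2) that gained MLL3/4 and an intronic one (2535 RPKM at W1) that had it at D0. *Runx1* (chr16:92601466-92826149) had 1 beside 12 retained regions, at 1959 RPKM at W1 and without MLL3/4. *Krt5*, for a basal keratin, had 0 beside 5 retained regions, and *Ctnnb1*, for beta-catenin, had 0 beside 6. *Vim*, for vimentin, and *Sox9* itself had 0 early transient and 0 retained regions.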

How the data were processed

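SOX9 and MLL3/4 CNR of sorted EpdSCs and MYC-tag and MLL3/4 CNR of cultured EpdSCs were analysed as 18 deposited peak lists from 32 of 41 samples, grouped by their labels, namely 1 pooled list for each of 16 groups and 2 lists of replicate 1 of WT-SOX9 cells without DOX. JUN, ARID1a and BRG1 samples were not analysed here. The authors used Skewer, Bowtie2 2.2.9 (mm10), Picard, Samtools 1.3.1 (fragments up to 120 bp, replicates combined) and Deeptools 3.1.2, and called peaks with SEACR (stringent, 0.01). The maximum of a SOX9 or MYC-tag peak was deposited in RPKM, and the authors kept those above 1800. In the 7 pooled MLL3/4 lists the deposited signal was in whole numbers. The study describes RPKM tracks, and whether this signal was scaled is not known. The deposited total score of these lists is that signal summed over a peak, and served only to rank peaks within a list. In 11 lists the maxima were whole multiples (within 0.05 fragments) of the RPKM of 1 fragment, which gave the depth.

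Python 3.11.15, pandas 2.3.3, numpy 2.4.6, scipy 1.17.1, pysam 0.24.0 and matplotlib 3.10.9 were used, with GRCm38.p6 and GENCODE vM21. Overlap meant 1 bp. Merging, overlaps, words and intervals were tested on simulated data. The members, gene lists, words and comparisons were chosen with earlier results of these data known. Named were the 6 members of highest maximum at W1 and at W2, the 10 genes with most members, up to 4 genes per list, 7 loci, the 5 strongest coding promoters and 6 windows for printing. Alternatives changed merging, signal limits, list sizes, weeks, overlap, MLL3/4 signal, windows, words, promoters, gene assignment and, without DOX, used the list of replicate 1.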

Additional observations from a re-analysis of the deposited data

How the results depend on the processing

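No paired analysis was possible because each group has 1 pooled list. With SOX9 lists of equal size 4310.0 regions were early transient, and with early peaks above 3600 RPKM 499. By week, 2264 had a W1 peak only, 2669 a W2 peak only and 1766 both. The share on MLL3/4 at D0, W1 and W2 was 75.1%, 85.9% and 84.8% with lists of equal size, 61.9%, 82.6% and 78.0% above 3600 RPKM, and 62.0%, 70.1% and 68.6% away from promoters. It was 62.6%, 62.8% and 62.3% within 100 bp of the maximum, and 44.1%, 43.2% and 39.7% with the upper 50% of MLL3/4 peaks. From 1800 to 2700 RPKM it was 64.8% at D0, 61.6% at W1 and 61.4% at W2. With W1 peaks only it was 59.2% at D0 and 53.9% at W2, with W2 peaks only 62.9%, 51.1% and 61.8%, and with both 75.9%, 85.6% and 85.1%.

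Transient minus retained turned at D0 MLL3/4 to -2.44 points above 3600 RPKM and -4.03 with the upper 50% of MLL3/4 peaks, and its interval reached 0 at 0.900 with peaks merged within 500 bp and 1.05 with 50% overlap. At W2 it turned to 4.32 for W1 peaks only, and its interval held 0 at -1.58 for W2 peaks only, -1.05 for both and -1.38 from 1800 to 2700 RPKM. The promoter difference, 2.51 points over all regions, turned to -8.48 above 3600 RPKM, -2.84 for W1 peaks only and -3.68 for both. Intervals also held 0 for gained MLL3/4 above 3600 RPKM (-1.07) and for the SOX word with W1 peaks only (-1.57). The cause was not tested.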

Other observations

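Early transient regions were also placed against retained ones. The median distance from a member's maximum to the nearest retained region was 19210 bp, against 12389 bp between retained regions and 31240 bp for late regions, and 37.1%, 45.6% and 28.3% lay within 10 kb. Within 50 kb were 71.1% of members, but also 54.0% of members moved by 100 kb, whose median distance was 43821.5 bp. A W6, W12 or D0 peak lay within 500 bp of 444 members (6.63%). When MLL3/4 peaks were ranked by total signal within their own list, the median peak under a member was at percentile 65.8 at D0, 62.7 at W1 and 58.6 at W2, against 73.0, 71.7 and 70.4 in retained regions. For members with both early peaks these medians were 75.1, 74.1 and 70.9, for W1-only members 67.9, 62.3 and 53.7, and for W2-only members 56.5, 51.2 and 51.4.

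Where a transient window held a SOX word, the word was a median of 19 bp from the maximum, and 17 bp in retained windows. In W2-only members it was 25 bp away and in W1-only members 16 bp. Chromosome X held 112 members, 1.67% of the class, and 1.04% of the retained class.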
